A study of Saccharomyces cerevisiae with 6 samples.

Results

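The change in RNA polymerase II (RNAP II) occupancy of the yeast genome between the G1 arrest and 30 min after release was measured at 5851 of the 6144 spots of a nylon array. Cells of the budding yeast strain BY4741, carrying the plasmid pRS316, were held in G1 with the mating pheromone alpha factor and sampled at the arrest (0 min) and 30 and 60 min after its removal. The 30 min cells and the 0 min cells thus shared the strain, the plasmid and the arrest with pheromone. The 30 min cells had in addition been washed and moved to new medium without the pheromone. Pheromone removal, the change of medium and the time since release cannot be told apart. RNAP II was immunoprecipitated through its subunit Rpb3 (RNAp ChIP), and the recovered DNA (IP) and the DNA of the whole cell extract (WCE) were hybridized separately to arrays whose spots are whole open reading frames. Of the 6 samples of the series, 2 entered this comparison, each with 3 IP and 3 WCE hybridizations. The 60 min sample entered only the estimate of the spread and the descriptions that name it. Occupancy is the log2 ratio of an IP array to the WCE array of its replicate number, centred on the median of its array, so that 0 is the level of the median spot and a change of the whole genome in 1 direction cannot be seen.

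A spot was kept when at least 2 ratios were available at 30 min and at 0 min. This left out 293 spots, of which 41 had too few ratios at 30 min only, 85 at 0 min only and 167 at both times, and 5558 spots had all 6 ratios. The files identify a spot by its place on the array and carry no gene names, so spots are described by their levels and their place, and 4 of them by their position. The titles and the descriptions of the 30 and 60 min RNAp ChIP samples exchange the time points. The descriptions and the names of the hybridizations were followed, and the count under the titles is given beside the result.

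RNAP II transcribes all protein-coding genes of the yeast nucleus. Its immunoprecipitation counts every polymerase crosslinked to a gene, whether it moves or not, whereas genomic run-on (GRO) labels only polymerases able to extend their transcript. Alpha factor blocks the cyclin-dependent kinase of G1, so that cells do not begin a new cycle, and turns on the genes of the mating response through the transcription factor Ste12. After release, the G1/S genes driven by SBF and MBF are transcribed, followed by histone genes in S phase, and the mating genes are switched off. Which spots carry these genes was not read from the files.

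The median intensity of the IP arrays was between 171 and 220 at 30 min, against 94.2 and 158 at 0 min, and that of the WCE arrays was between 278 and 344 at 30 min, against 99.6 and 261 at 0 min. The median log2 ratio before centring was -0.62, -0.44 and -0.69 in the 30 min replicates, against -1.48, -0.33 and 0.03 in the 0 min replicates. Across spots, Pearson's r of the centred ratios was between 0.842 and 0.867 over the 3 pairs of 30 min arrays, between 0.669 and 0.734 over the 3 pairs of 0 min arrays, and between 0.589 and 0.706 over the 9 pairs that join the times. The 0 min arrays were thus dimmer and less alike than the 30 min arrays. The spread of occupancy across spots showed no difference that passed. Its SD was 1.02 ± 0.0280 at 30 min and 1.04 ± 0.0897 at 0 min (SD, n = 3 arrays each), a difference of -0.02 with an exact two-sided permutation p of 0.8, where the 20 regroupings of 3 against 3 arrays allow no p below 0.1. The methods describe 3 synchronized cultures, and the labels do not say which hybridization came from which, so some of the spread behind the p-values may be technical, and precision is limited by the number of arrays.

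Occupancy changed at 303 of the 5851 spots (5.18%; limma, Benjamini-Hochberg adjusted p below 0.05). It rose at 97 spots (1.66%) and fell at 206 (3.52%) at 30 min relative to 0 min, and the largest falls were steeper than the largest rises. A fall of 4-fold or more was estimated at 70 spots, of which 55 passed the test. A rise of that size was estimated at 35, of which 6 passed. Each value is an average over the culture, so fewer cells of a stage and less polymerase per cell cannot be told apart. Over all spots tested the median change was 0.01, with quartiles at -0.32 and 0.33 and with 5% of spots below -0.99 and 5% above 0.92 on the log2 scale. The median standard error of a change was 0.25, and the smallest change that passed the test was 0.65. That value is not a detection limit, since many larger changes did not pass. A change of 2-fold or more was estimated upward at 246 spots, of which 64 passed the test, and downward at 286, of which 165 passed. The values at 30 min lay above all those at 0 min in each of the 97 spots that rose and below them in each of the 206 that fell. Among all spots tested, 874 (14.9%) were separated upward and 817 (14.0%) downward. The adjusted p just inside the threshold was 0.0487 and just outside it 0.0501.

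**Figure D1:**
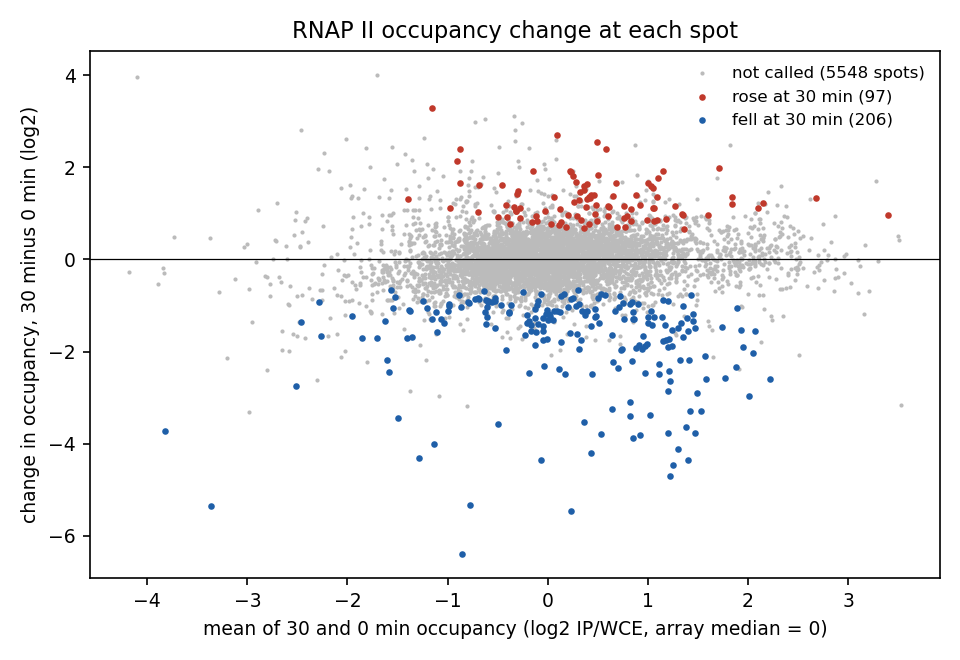
Change in RNAP II occupancy (30 minus 0 min, log2, vertical axis) against the mean of the 30 and 0 min occupancy (log2 IP/WCE with the array median at 0, horizontal axis), 1 point for each of the 5851 spots. The 97 red points rose and the 206 blue points fell with an adjusted p below 0.05, and the blue points reach farther from 0 (-6.39) than the red ones (3.28).

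The count of spots depended on the WCE used and on single arrays. With the mean WCE of all 9 arrays as the denominator of every ratio, 70 spots passed, of which 4 rose (5.71% of the calls, against 32.0% with the WCE of each replicate) and 66 fell, and 67 of the 70 were among the 303. Without 30 min replicate 1 the count was 145 (34 rose, 111 fell), without 30 min replicate 3 it was 136 (36 rose, 100 fell), and without 0 min replicate 3 it was 191 (64 rose, 127 fell). In a fit of the 6 hybridization pairs of 30 and 0 min alone it was 179 (50 rose, 129 fell). With the time points of the titles, that is with the array set named 60 min taken as 30 min, 139 spots passed, 85 of them among the 303. Across all 6 fits that left out 1 RNAp ChIP replicate of these times, 117 of the 303 spots passed every time in 1 direction: 28 of those that rose, with a median change of 1.44, and 89 of those that fell, with a median of -2.09.

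Most of the 206 spots that fell had been occupied above the median spot in the arrested cells. Their median occupancy in the 3 arrays was -0.58, -0.51 and -0.58 at 30 min, against 0.97, 1.13 and 1.11 at 0 min. At 30 min 58 of them were above the array median, against 161 at 0 min, and 103 crossed it downward. Among all 5851 spots tested, 568 crossed it downward. In the top 10% of occupied spots there were 2 of the fallen spots at 30 min, against 95 at 0 min. The median change of these spots was -1.41 (quartiles -2.18 and -1.07). These values chose the spots and are a description. The 10 largest falls among called spots with 3 values at each time lay between -5.47 and -3.88, so that the list has a tail of spots that had lost most of their signal.

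The 97 spots that rose were spread widely over the range in the arrested cells, with their median below the array median. Their median occupancy in the 3 arrays was 1.10, 1.12 and 1.04 at 30 min, against -0.27, -0.11 and -0.24 at 0 min. At 30 min 92 of them were above the array median, against 39 at 0 min, and 53 crossed it upward. Among all 5851 spots tested, 610 crossed it upward. In the top 10% there were 36 of the risen spots at 30 min, against 5 at 0 min. At 0 min their SD across spots was 0.83, 1.01 and 0.89 in the 3 arrays, against 0.95, 1.12 and 1.07 over all spots tested. The median change of the risen spots was 1.15 (quartiles 0.94 and 1.50). As for the fallen spots, these values chose the list and are a description. The 10 largest rises among called spots with 3 values at each time lay between 3.28 and 1.80.

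The IP side of the ratio moved more than the WCE side at most of these spots. Tested alone, IP passed at 69 spots (1.18%), 6 upward and 63 downward, and WCE passed at none (0%; limma, 209 spots had an unadjusted p below 0.05). Of the 206 spots that fell, 204 had a lower IP at 30 min and 60 passed the IP test. Their median change was -1.35 in IP and 0.02 in WCE, and the IP change was the larger in size at 186 of them. Of the 97 that rose, 95 had a higher IP at 30 min and 5 passed the IP test. Their median change was 1.09 in IP and -0.17 in WCE, and the IP change was the larger at 81. Over all spots tested IP was the larger at 3436. The values per array show the contrast between the lists. The median centred log2 IP of the spots that rose was 0.63, 0.34 and 0.82 at 30 min, against -0.29, -0.38 and -0.47 at 0 min, and that of the spots that fell was -0.02, -0.08 and -0.20 at 30 min, against 1.44, 1.55 and 1.42 at 0 min. In WCE the spots that rose were below the array median in all 6 arrays, at -0.70, -0.71 and -0.24 at 30 min, against -0.37, -0.39 and -0.27 at 0 min. The spots that fell were above it in all 6, at 0.48, 0.49 and 0.46 at 30 min, against 0.59, 0.51 and 0.46 at 0 min. The IP and WCE changes come from the contrast that chose the spots and are given as a description.

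**Figure D2:**
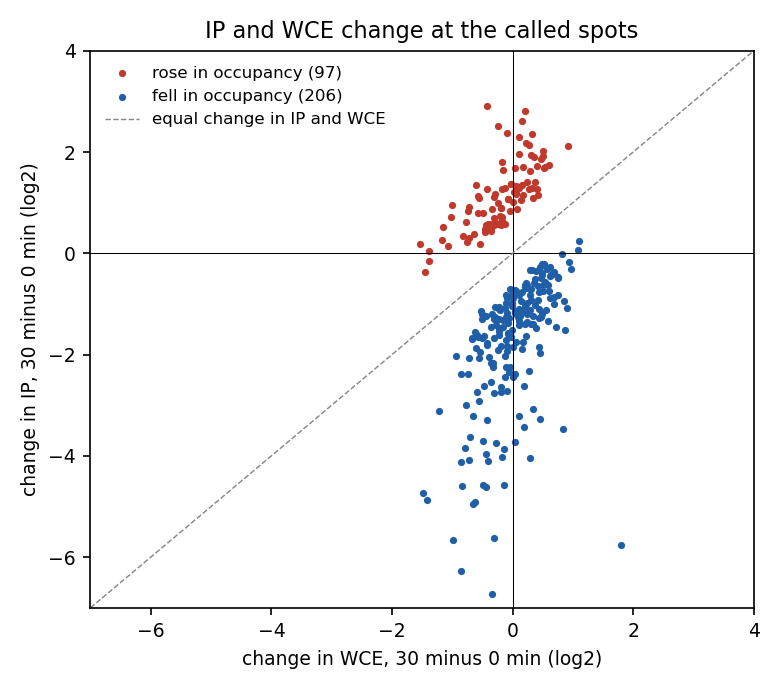
Change in IP (vertical axis) against change in WCE (horizontal axis), both 30 minus 0 min on the log2 scale of array-centred intensities, for the 97 spots that rose (red) and the 206 that fell (blue). The points spread along the vertical axis, with a median IP change of 1.09 and -1.35 in the 2 lists against median WCE changes of -0.17 and 0.02.

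The brightness of a spot in WCE moved with the direction of its change. With the spots split into 4 equal groups by WCE intensity, the median change was 0.19, 0.06, -0.01 and -0.15, dimmest group first. The share that fell was 2.12%, 2.67%, 3.97% and 5.33%, and the share that rose was 2.26%, 1.91%, 1.50% and 0.957%. After a loess correction of each array for WCE intensity, added after the data were seen, the medians were 0.06, 0.03, 0.04 and -0.05, and 266 spots passed, 87 upward and 179 downward. By group, 38, 40, 46 and 55 spots then fell, against 31, 39, 58 and 78 before the correction. The spots that rose numbered 22, 22, 25 and 18, against 33, 28, 22 and 14 before, so falls still increased with brightness. Without the dimmest 25% of spots by WCE, 358 spots passed, 118 upward and 240 downward, and 239 of them were among the 303. The part of spot brightness in the calls was otherwise not tested.

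The spots called for occupancy were read next in GRO, which shares no hybridization with RNAp ChIP. Run-on changed at 294 of 5738 spots (5.12%), of which 103 were higher (1.8%) and 191 lower (3.33%) at 30 min. Of the 202 fallen spots with run-on values, 179 had lower run-on at 30 min and 64 (31.7%) passed that test downward, whereas none passed upward. Those 64 were 33.7% of the spots called lower in run-on among those measured in both assays. The median run-on of the fallen spots was -0.43, -0.31 and -0.27 in the 30 min arrays, against 0.58, 0.60 and 0.63 in the 0 min arrays, so the 2 sets of arrays did not overlap. Of the 93 risen spots with run-on values, 75 had higher run-on at 30 min, 14 (15.1%) passed upward and 1 (1.08%) passed downward. Those 14 were 13.6% of the spots called higher in run-on among those measured in both. Their median run-on was 0.74, 0.70 and 0.78 in the 30 min arrays, against 0.23, 0.11 and 0.01 in the 0 min arrays, again without overlap. Over the 5679 spots measured in both assays, run-on was higher at 30 min in 49.4%, and 1.81% passed upward and 3.35% downward. The median run-on change was 0.50 (quartiles 0.22 and 1.16) at risen spots, -0.94 (quartiles -1.63 and -0.33) at fallen spots and -0.01 (quartiles -0.47 and 0.41) over all. When blocked by replicate number run-on passed at 138 spots (replicate block), including 42 of the fallen spots downward and 9 of the risen spots upward. With the filter as a random block it passed at 1534 spots (12.7% upward and 14.0% downward), including 117 of the fallen spots downward and 4 upward, and 42 of the risen spots upward and 7 downward. With the 6 run-on arrays of these times alone it passed at 82. Leaving out any 1 of those arrays gave between 108 and 183. The label of the 30 min run-on sample names replicates 1 and 2, whereas 3 arrays were present and used, and without 30 min replicate 3 the count was 115.

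The larger the change in occupancy, the more often run-on passed in the same direction. Of 53 spots with run-on values whose occupancy fell 4-fold or more, 51 had lower run-on and 35 (66.0%) passed, with a median run-on change of -2.01 beside a median occupancy change of -3.10. Of 108 spots that fell 2- to 4-fold, 91 had lower run-on and 25 (23.1%) passed, and of 41 that fell less, 37 had lower run-on and 4 (9.76%) passed. Among risen spots, 48 of the 60 that rose 2-fold or more had higher run-on and 14 (23.3%) passed, and 27 of the 33 that rose less had higher run-on and 0 passed. These shares are descriptions, since a larger change is also easier to call.

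Occupancy and run-on changed by different amounts at 85 of 5679 spots (1.5%), in a test of the difference itself on z-scores within each hybridization. The change in occupancy lay below that in run-on at 65 and above it at 20. The 85 spots included 46 that fell in occupancy, all with occupancy below run-on, and 8 that rose, all with occupancy above. Of the 138 fallen spots that did not pass downward in run-on, 36 passed the test of the difference, and of the 79 risen spots that did not pass upward, 8 did. The occupancy change that chose both lists also enters this difference, so these directions and shares are descriptions. At the other spots called for occupancy alone a difference between the assays was not shown. On centred log2 ratios in place of z-scores, 83 spots passed, 36 above and 47 below, with 24 of the fallen spots below, 6 of the risen spots above and 1 risen spot below. With the replicate block 48 spots passed. Without 0 min RNAp ChIP replicate 2 the count was 192. It was 44 without 30 min RNAp ChIP replicate 1, 40 without replicate 3 of that time, and 50 and 41 without 0 min RNAp ChIP replicates 1 and 3. It was 44 and 39 without 30 min run-on replicates 2 and 3, and 37 and 40 without 0 min run-on replicates 1 and 2.

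Spots with much run-on in the arrested cells made up a larger share of those that fell. With the spots split into 4 equal groups by run-on level at 0 min, 2.11%, 2.61%, 3.10% and 6.41% fell in occupancy, lowest run-on first, and 91 of the fallen spots were in the highest group. The share that rose was 1.76%, 1.41%, 1.83% and 1.55%. Occupancy at 0 min enters the change that chose both lists, so the shares by run-on level at that time are descriptions.

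At 60 min most called spots stood between their 0 and 30 min levels. For the spots that fell, median occupancy at 0, 30 and 60 min was 1.07, -0.60 and -0.20, and that of the spots that rose was -0.25, 1.11 and 0.33 at the 3 times. Of the spots that fell, 163 (79.1%) were at 60 min between the other levels, 22 were still lower than at 30 min and 21 were above their 0 min level. Of the spots that rose, 69 (71.1%) were between, 12 were higher than at 30 min and 16 were below their 0 min level. Among all 2859 spots with a downward estimate 41.8% were between, and among all 2987 with an upward estimate 40.9%. The 0 and 30 min levels chose the lists and a called change leaves more room between them, so the shares are descriptions. Run-on at 60 min had a similar order, at 0.59, -0.34 and -0.06 for the spots that fell and 0.08, 0.71 and 0.18 for those that rose, at 0, 30 and 60 min. The 55 spots that fell 4-fold or more were at 2.42, -0.78 and -0.45 in occupancy and at 1.53, -0.61 and -0.36 in run-on, and thus regained little of their level by 60 min.

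**Figure D3:**
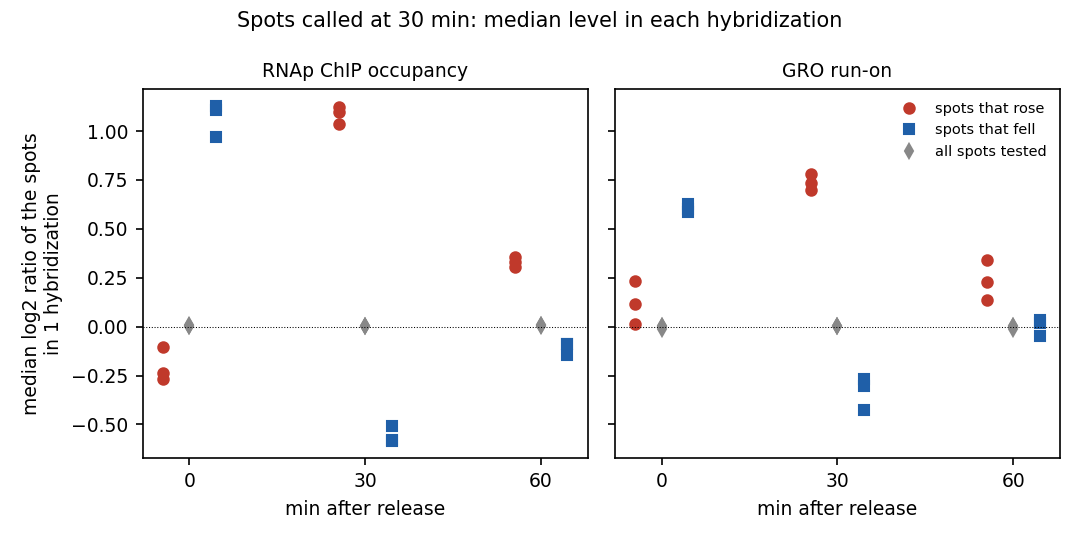
Median log2 ratio (array median at 0, vertical axis) of the 97 spots that rose (red), the 206 that fell (blue) and all spots tested (grey), 1 point for each hybridization, by min after release (horizontal axis), for RNAp ChIP occupancy (left) and GRO run-on (right). In both assays the red points are highest and the blue points lowest at 30 min, and at 60 min both lie nearer to the grey points.

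The spot at array position R3 - C4 : 3 had the largest fall among called spots with 3 values at each time. Its IP intensity was 31.6, 18.9 and 24.4 at 30 min, against 705, 1868 and 1056 at 0 min, while its WCE intensity was 214, 193 and 213 at 30 min, against 303, 254 and 129 at 0 min. The log2 occupancy was -2.14, -2.91 and -2.44 at 30 min, against 2.69, 3.21 and 3.00 at 0 min, so all of the 30 min arrays were far below all of the 0 min arrays. The means were -2.50 ± 0.39 at 30 min and 2.97 ± 0.26 at 0 min (SD, n = 3 each), a log2 change of -5.47 (SE 0.25, limma adjusted p = 2.37e-05), or 44.2-fold lower. The spot moved to percentile 1.20 of all spots at 30 min, against percentile 99.4 at 0 min, and was at percentile 0.872 at 60 min. Its run-on changed by -4.89 (SE 0.78, limma adjusted p = 0.0132), and the difference between the assays did not pass (adjusted p = 0.109).

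The spot R9 - C17 : 3 fell by nearly as much. Its IP intensity was 52.4, 31.5 and 8.72 at 30 min, against 676, 668 and 767 at 0 min, and its WCE intensity was 643, 391 and 252 at 30 min, against 415, 255 and 219 at 0 min. The log2 occupancy was -3.00, -3.19 and -4.17 at 30 min, against 2.18, 1.72 and 1.78 at 0 min, and the third 30 min array was the lowest of all. The means were -3.45 ± 0.63 at 30 min and 1.89 ± 0.25 at 0 min (SD, n = 3 each), a change of -5.34 (SE 0.29, limma adjusted p = 3.36e-05), or 40.6-fold lower. At 60 min its occupancy was -0.93, -0.85 and -0.85, above every 30 min value. Run-on at this spot was already low in the arrested cells, at -3.06, -3.88 and -3.38 at 30 min, against -1.19, -1.33 and -1.71 at 0 min, a change of -2.03 (SE 0.36, limma adjusted p = 0.0191). It is among the 85 spots at which the changes in the assays differed, by -3.96 in z-scores (limma adjusted p = 1.55e-04). The test compares changes and not levels. At 0 min the spot was highly occupied, at percentile 95.4, with a run-on at percentile 10.5. Its run-on intensity was 15.1, 6.0 and 4.6 at 30 min, against 53.8, 34.2 and 34.1 at 0 min. Whether these intensities limited the fall in run-on was not tested.

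The spot R12 - C16 : 2 had the largest rise among called spots with 3 values at each time. Its IP intensity was 58.6, 76.6 and 113 at 30 min, against 5.36, 6.27 and 7.46 at 0 min, and its WCE intensity was 74.9, 67.7 and 122 at 30 min, against 86.6, 74.5 and 44.7 at 0 min. The log2 occupancy was 0.26, 0.62 and 0.57 at 30 min, against -2.54, -3.24 and -2.62 at 0 min, and the groups did not overlap. The means were 0.49 ± 0.19 at 30 min and -2.80 ± 0.39 at 0 min (SD, n = 3 each), a change of 3.28 (SE 0.38, limma adjusted p = 0.00140), or 9.75-fold higher. The medians of the 0 min IP arrays were between 94.2 and 158, so this fold rests on a weak IP signal at 0 min. This spot was in the dimmest of the 4 groups by WCE, and its 60 min values of -2.30, -1.28 and -0.73 lay between the other times. With the times of the titles its change was 1.36 (adjusted p = 0.135). Its run-on intensity was 10.2, 13.2 and 12.9 at 30 min, against 0, 0 and 2.97 at 0 min, so run-on was not tested there.

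The spot R13 - C14 : 13 rose and kept its level. Its IP intensity was 56.9, 107 and 188 at 30 min, against 6.16, 18.6 and 11.3 at 0 min, and its WCE intensity was 28.1, 59.8 and 115 at 30 min, against 31.3, 91.5 and 21.2 at 0 min. The log2 occupancy was 1.64, 1.29 and 1.40 at 30 min, against -0.87, -1.97 and -0.94 at 0 min, and it was 1.84, 1.55 and 1.53 at 60 min. The means were 1.44 ± 0.18 at 30 min and -1.26 ± 0.62 at 0 min (SD, n = 3 each), a change of 2.70 (SE 0.29, limma adjusted p = 9.79e-04), or 6.52-fold higher. Here too the 0 min IP signal was weak beside array medians between 94.2 and 158. Run-on changed by 3.31 (SE 0.74, limma adjusted p = 0.0422), with replicates at 2.86, 0.86 and -0.04 at 30 min, against -3.09, -1.47 and -1.70 at 0 min. This spot too was in the dimmest of the 4 groups by WCE, and with the mean WCE as the denominator its change of 2.47 did not pass (adjusted p = 0.0592).

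**Figure D4:**
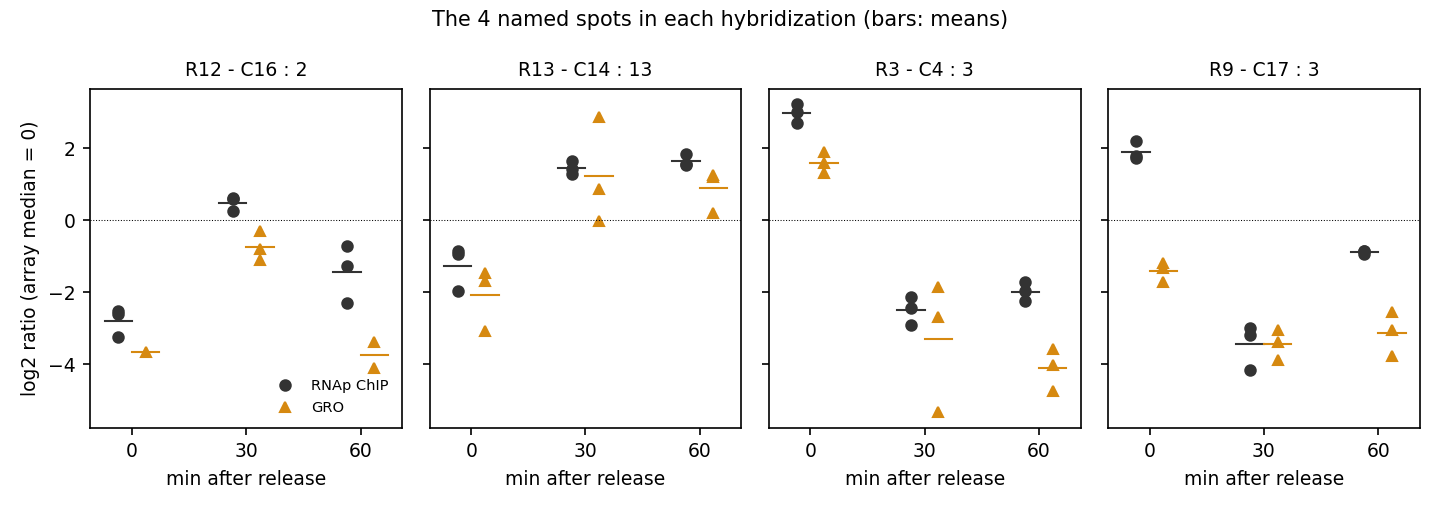
Log2 ratio (array median at 0, vertical axis) of 4 spots in every hybridization at 0, 30 and 60 min after release (horizontal axis), with occupancy as black circles and run-on as orange triangles, and the mean of each time as a bar. At 30 min R12 - C16 : 2 and R13 - C14 : 13 stand above, and R3 - C4 : 3 and R9 - C17 : 3 below, all of their 0 min occupancy values.

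Spots without signal in one of the groups are not in these counts. IP was 0 in all 3 arrays at 30 min and above 0 in all 3 at 0 min at 2 of the 5799 spots with a WCE signal throughout, and the reverse was found at 0 spots. At one of the 2 spots IP was 3.66, 6.26 and 8.40 at 0 min, and at the other 3.62, 13.4 and 12.8, where the medians of the 0 min IP arrays were between 94.2 and 158. An IP of 0 in 2 or 3 arrays at 30 min with signal in all 3 at 0 min was found at 9 spots, and the reverse at 15.

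The called spots were spread over the array, with 3 dense places. The array has 16 rows and 24 columns of blocks, with up to 16 spots in each of the 384 blocks. Spots that rose lay in 76 blocks, with 2 to 14 in an array row, and spots that fell lay in 152 blocks, with 4 to 25 in an array row. In the block at row 16, column 23, 6 of 15 spots rose and the median change was 1.35, and in the neighbouring block at column 22, 5 of 15 rose and the median was 0.77. In the block at row 14, column 4, 6 of 15 fell and the median was -0.76. The median run-on change in these blocks was -0.20, 0.17 and 0.18. Block medians lay between -0.5 and 0.5 in 367 of the 384 blocks. Without the 3 blocks, a setting added after the data were seen, 282 spots passed, 84 upward and 198 downward, and with every array centred on each block's median 446 passed, among them 241 of the 303. The part of array position in single calls was not tested otherwise.

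**Figure D5:**
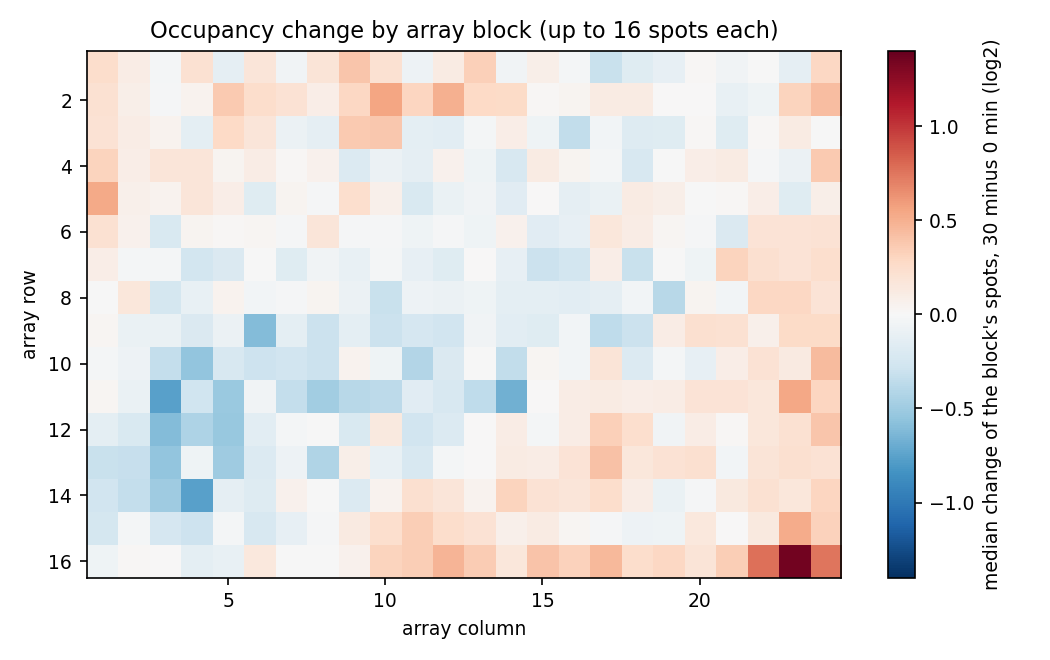
Median change in occupancy (30 minus 0 min, log2, colour) of the spots in each of the 384 array blocks, by array row (vertical axis) and array column (horizontal axis). The darkest red blocks are at row 16, columns 22 and 23 (0.77 and 1.35), and blue blocks gather at the left of rows 10 to 14, down to -0.76.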

How the data were processed

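The authors hybridized 33P-labelled material to nylon arrays, read them on a phosphorimager and deposited background-subtracted intensity per spot from ArrayVision, with no normalization between the 34 hybridizations. Before labelling, ligation-mediated PCR had copied the DNA of both fractions, which can change relative amounts. Intensities of 0 were taken as missing. Log2 ratios (IP over WCE of one replicate number; run-on RNA over genomic DNA of one filter) were centred on the array median. Neither the background rule of the study nor its rDNA scaling could be used, since the files hold neither backgrounds nor spot names.

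Changes were fitted with limma 3.58.1 (lmFit, eBayes) in R 4.3.3 over the 9 hybridizations of each assay together, and p-values were adjusted (Benjamini-Hochberg) over all spots tested, with a threshold of 0.05. Figures were drawn with Python 3.11.15 and matplotlib 3.10.9. Named spots are the 2 largest changes in each direction among the 291 called spots with 3 values and no overlap. Same-numbered deviations at 30 and 0 min correlated at 0.496, 0.128 and 0.172 in run-on, each over 0.1. The main run-on fit and the test of the difference had no replicate term, and a replicate block was run as an alternative. The replicates numbered 1 share a filter and its genomic DNA values, which enter both of their ratios. Replicates 2 and 3 share none, and correlated at 0.130 and 0.137 across numbers, so the pairing of those is not shown. The spots and lists were chosen with earlier results of these data known. Alternatives changed the normalization, filter, denominator, arrays and time labels. Gene names were not used here. As a check of the time labels, the 60 minus 30 min changes of occupancy and run-on correlated at r = 0.218 over 5670 spots under the descriptions.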

Additional observations from a re-analysis of the deposited data

Results flagged for a closer look

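The change in occupancy and the change in run-on between 0 and 30 min differed at 85 of 5679 spots, in a test of the difference itself (limma, adjusted p below 0.05). At 65 of them occupancy changed downward relative to run-on, and at 20 upward.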

How the results depend on the processing

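The occupancy count of 303 was 312 after quantile normalization, 446 after centring on block medians, 322 with 3 values at both times, 309 with values at all 3 times, 358 without the dimmest 25% of spots, 271 with 0 replaced by the smallest intensity, 266 after loess and 282 without the 3 dense blocks. It was 70 with the mean WCE, 179 in a fit of the 6 hybridization pairs alone and 139 with the times of the titles, and between 136 and 331 without 1 replicate. Leaving out 1 replicate gave between 38 and 74 calls in IP, with 42 without 30 min replicate 2 and 38 without 0 min replicate 2, between 0 and 1 in WCE, between 108 and 183 in run-on and between 37 and 192 for the difference between the assays. With 6 hybridizations IP had 35 calls and run-on 82. With the filter as a random block run-on had 1534 calls. The difference in the spread of occupancy was between -0.0733 and 0.0143 without 1 replicate, the positive value without 0 min replicate 2, 0.00366 as an interquartile range and 0.0199 without the dimmest spots. Spots called in occupancy and run-on in 1 direction numbered 78, and between 36 and 159 over the alternatives. The named spots R3 - C4 : 3 and R9 - C17 : 3 passed under all 18 alternatives run for them. The causes of these shifts were not tested.

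With the replicate number as a block the occupancy count was 180, and same-numbered occupancy arrays did not deviate together (r = 0.0824, 0.0319 and -0.0245), so these numbers were treated as names. The replicate block gave 138 calls in run-on and 48 for the difference between the assays.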
